A study of Mus musculus with 38 samples.

Results

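Organoids that lost Foxa1 alone were examined in 12 RNA sequencing libraries, out of 38 libraries in the whole study, chosen as those whose genotype held a floxed Foxa1 and no floxed Foxa2. All 12 came from mouse lung adenocarcinomas on a mixed 129/B6 background and carried p53frt and Foxa1flox, with Rosa-FSF-CreERT2 as the source of Cre, so both treatment groups shared every allele. In such animals a Flp recombinase removes the stop cassette of CreERT2, and 4-hydroxytamoxifen (4-OHT) then lets CreERT2 excise floxed sequence. The 4-OHT group (6 libraries) received 2 uM 4-OHT for 72 hours, and the vehicle group (6 libraries) received ethanol. Each of 3 organoid lines, 1552A, 1552B and 1552C, was grown from 1 tumour in Matrigel with L-WRN medium and gave 2 libraries per treatment. The 2 libraries of a line and treatment share a tumour, and whether they were separate cultures is not stated. The line names share a stem whose meaning is not stated, nor is the time from treatment to RNA isolation. No line without floxed alleles received 4-OHT, so loss of Foxa1 and any other effect of 4-OHT or active Cre cannot be told apart.

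Foxa1 and Foxa2 are forkhead transcription factors that bind nucleosomal DNA and open it for other factors, and they have overlapping roles in endoderm, lung and liver. In lung epithelium they work beside Nkx2-1, the lineage factor of alveolar type 2 (AT2) cells, which make surfactant. Foxa3 is a further paralog, best known from liver and gut.

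Each library held between 24.7 and 33.2 M counts over genes. Levels below are in CPM, counts scaled to a common library total with edgeR's TMM factors and not corrected for gene length. The 3 lines differed far more than the treatments did: libraries of 1 line correlated with r from 0.950 to 0.990 and libraries of different lines with r from 0.872 to 0.936. The lowest within-line value was between 4-OHT replicate 1 and vehicle replicate 2 of line 1552A. Mitochondrial genes held 2.36 ± 0.79% of counts in 4-OHT and 2.42 ± 0.89% in vehicle libraries (SD, n = 6 each; two-sided exact permutation within lines, p = 0.824; the smallest p it allows is 0.00926). Epithelial markers (Epcam, Cdh1, keratins) summed to 10624 to 16537 CPM with 4-OHT and to 9016 to 15759 CPM with vehicle. The line mean of this sum was higher with 4-OHT in all 3 lines. In 1552A it was barely so, with 10624 and 11095 CPM against 9016 and 12702 CPM with vehicle. The summed levels of the marker lists of other cells overlapped between treatments: fibroblast genes at 263 to 461 CPM with 4-OHT and 260 to 414 CPM with vehicle, leukocyte genes at 47.1 to 78.8 CPM and 44.7 to 82.0 CPM, and endothelial genes at 6.30 to 46.4 CPM and 9.72 to 39.3 CPM. The fibroblast sum was nearly all Gsn, at 260 to 457 CPM with 4-OHT and 259 to 410 CPM with vehicle, and its line mean was higher with 4-OHT in all 3 lines. The fibroblast collagen gene Col1a1 was low, from 0.372 to 3.30 CPM with 4-OHT and from 0.0388 to 0.720 CPM with vehicle, and lay above vehicle in every line (log2 change 1.47 ± 0.36, adjusted p = 0.151, edgeR). Among the defining markers, Lum and Tcf21 of fibroblasts and Emcn of endothelium had no count in any of the 12 libraries, and erythroid genes summed to at most 0.238 CPM.

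Foxa1 itself fell in all 3 lines. Its level ran from 13.7 to 16.7 CPM with 4-OHT (median 15) and from 40.9 to 78.6 CPM with vehicle (median 56.7), and no library of one treatment reached into the range of the other. The 4-OHT libraries were nearly uniform at 15 ± 1.21 CPM, while vehicle libraries stood at 58.6 ± 15.7 CPM (SD, n = 6 each) and differed by line. The log2 change was -1.92 ± 0.13 (SE), with an adjusted p of 4.45e-05 (edgeR quasi-likelihood test, Benjamini-Hochberg over all genes). What remained was 33.8% of the vehicle level in 1552A, 19.7% in 1552B and 27.5% in 1552C. Foxa1 lies on the minus strand at chr12:57540628-57546916 (GRCm38), and the labels do not say which of its exons is flanked by loxP sites. Gene-level counts in bulk RNA cannot tell cells that kept Foxa1 from less Foxa1 RNA per cell or from reads of exons outside the excised part.

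The other forkhead paralogs and Nkx2-1 did not pass the test. Foxa2 ran from 93.8 to 174 CPM with 4-OHT (median 141) and from 67.7 to 171 CPM with vehicle (median 157), with a log2 change of 0.13 ± 0.11 (edgeR adjusted p = 0.677). Its line means with 4-OHT were 85.5%, 143% and 106% of vehicle in 1552A, 1552B and 1552C. In 1552B, which had the lowest Foxa2 in both treatments, both 4-OHT libraries lay above both vehicle libraries. Foxa3 was high in 1 line only: it stood at 21.4 and 23.9 CPM with 4-OHT and 15 and 18.9 CPM with vehicle in 1552C, and at 3.21 CPM or less in the libraries of the other lines (log2 change 0.47 ± 0.27, adjusted p = 0.506, edgeR). Nkx2-1 ran from 148 to 237 CPM with 4-OHT (median 189) and from 142 to 354 CPM with vehicle (median 223), and the groups overlapped (log2 change -0.26 ± 0.17, adjusted p = 0.562, edgeR). Its line means were 58.2% of vehicle in 1552A, 117% in 1552B and 85.1% in 1552C. Of 30 lung and endoderm regulators tested, Foxa1 was the only one called, 21 had a fitted change below 0 and 9 above, and their median log2 change was -0.11, against 0.00 over all genes tested.

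**Figure D1:**
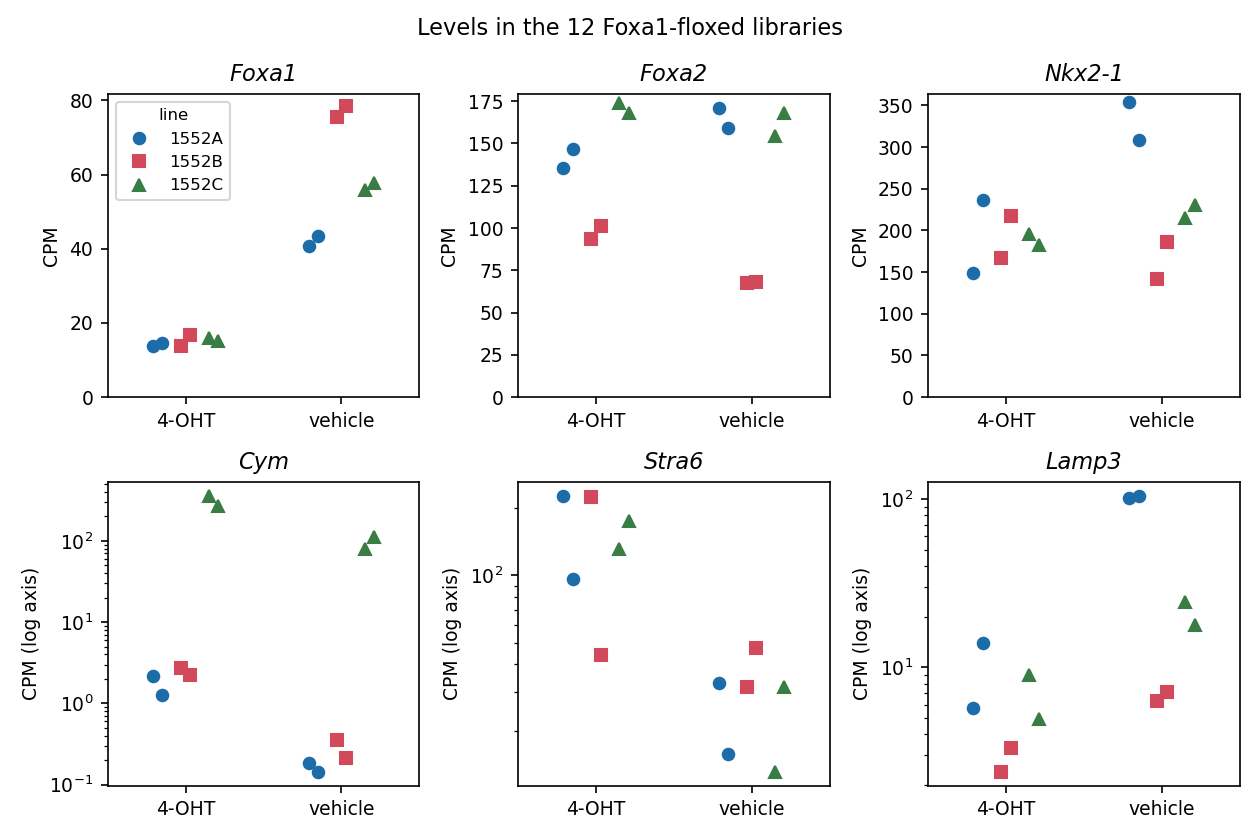
Levels of 6 genes in the 12 libraries, in CPM, with 4-OHT on the left and vehicle on the right of each panel and 1 point per library, coloured by organoid line. Panels of Cym, Stra6 and Lamp3 have a log axis. Foxa1 sits between 13.7 and 16.7 CPM in every 4-OHT library, below all vehicle libraries, while Foxa2 and Nkx2-1 overlap between treatments.

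Beside Foxa1, 1 gene passed: of 15854 genes tested, 2 (0.0126%) were called, Foxa1 as lower and Cym as higher. Cym encodes chymosin, an acid protease of the stomach of young mammals, and lies at chr3:107211293-107221732 on the minus strand (GRCm38). In line 1552C it stood at 358 and 267 CPM with 4-OHT and at 80.0 and 112 CPM with vehicle. In 1552A it stood at 2.20 and 1.28 CPM with 4-OHT and at 0.183 and 0.144 CPM with vehicle, and in 1552B at 2.72 and 2.26 CPM with 4-OHT and at 0.356 and 0.213 CPM with vehicle. Within every line both 4-OHT libraries lay above both vehicle libraries, although over the lines the groups overlapped, since the level in 1552C exceeded that of the other lines in both treatments. The fitted log2 change was 2.30 ± 0.27, and it was 3.37, 3.10 and 1.70 in 1552A, 1552B and 1552C (adjusted p = 0.0135, edgeR).

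The call of Cym and the number of calls depended on the libraries. Cym missed the threshold without vehicle replicate 1 of 1552A (adjusted p = 0.0514), without vehicle replicate 5 or 4-OHT replicate 5 of 1552C (0.0854 and 0.0659), and without line 1552A or 1552B (0.0884 and 0.0585), while Foxa1 stayed called with each library or line left out (highest adjusted p 0.0369, without 1552C; all edgeR). The count was 44 without 4-OHT replicate 4 of 1552B, 8 without 4-OHT replicate 1 of 1552A, 20 without 1552B, and 1 in each case in which Cym was lost except the omission of 1552B. DESeq2 called 354 genes (284 higher, 70 lower) and edgeR without a filter on low counts 1250, both lists holding Foxa1 and Cym, whereas edgeR on counts summed per line called none (adjusted p = 0.263 for both genes) with 1568 genes at an unadjusted p under 0.05. Over the 12 libraries, 1957 genes (12.3%) had an unadjusted p under 0.05, of which 1139 were fitted higher and 818 lower.

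Sequence before the annotated start of 3 genes is printed here because they are the targeted gene, the gene called as higher, and the surfactant cell gene that comes up below as lower in every line. Each is taken from the RefSeq start region for GRCm38.p6 and printed 5′ to 3′ on the minus strand, without the gene's exons. For Foxa1 and Lamp3 the RefSeq start lies inside the longer gene whose coordinates are given in this text, which has an earlier start. Capitals mark a match to a forkhead word on either strand, either TGTTTAC or its variants TGTTTGC and, with another base changed, TATTTAC and, with both changed, TATTTGC.
Foxa1, chr12:57546122-57546361: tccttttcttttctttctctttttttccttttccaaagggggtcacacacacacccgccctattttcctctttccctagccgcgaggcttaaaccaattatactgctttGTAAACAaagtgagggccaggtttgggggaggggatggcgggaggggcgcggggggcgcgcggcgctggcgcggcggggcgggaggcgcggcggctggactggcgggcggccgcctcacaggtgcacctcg
Cym, chr3:107221733-107221982: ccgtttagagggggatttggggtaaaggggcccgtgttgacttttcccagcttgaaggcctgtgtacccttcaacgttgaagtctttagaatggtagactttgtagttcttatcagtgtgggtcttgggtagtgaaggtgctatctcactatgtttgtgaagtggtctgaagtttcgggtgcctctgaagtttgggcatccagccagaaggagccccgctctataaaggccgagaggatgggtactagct
Lamp3, chr16:19706376-19706615: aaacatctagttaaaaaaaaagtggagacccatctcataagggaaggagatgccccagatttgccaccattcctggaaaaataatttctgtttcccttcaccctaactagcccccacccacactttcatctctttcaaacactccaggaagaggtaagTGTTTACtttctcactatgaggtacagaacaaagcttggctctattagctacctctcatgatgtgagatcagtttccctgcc

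Foxa1 held 1 match on the strand opposite to the printed one, with its nearest base 135 bases before the RefSeq start. Lamp3 held 1 match on the printed strand, 86 bases before its RefSeq start. Both distances count exon bases that are not printed. These letters did not occur in the printed window of Cym. Over the whole RefSeq table, 13.5% of 32851 start regions (250 bases before to 50 after the start) held at least 1 match. Of the tested genes with such a region, 11.3% of 10902 held a match, as did 7 of 21 AT2 genes and 6 of 16 gastric and intestinal genes. Of the 12 uncalled genes per direction described below, 0 of 5 with a region held a match among the higher ones and 1 of 8 (12.5%), Lamp3, among the lower ones. A match is a description of these letters and shows no binding.

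A further 12 genes led the upward changes without passing the adjusted threshold, by the rule of smallest p among genes that averaged 2 or more in log2 CPM and had 1 sign over the 3 lines. Tcp11l1 came closest: it ran from 3.38 to 12.1 CPM with 4-OHT (median 4.53) and from 1.13 to 3.29 CPM with vehicle (median 1.76), so that every 4-OHT library lay above every vehicle library (log2 change 1.5 ± 0.21, edgeR adjusted p = 0.0522). Fam171a2 ran from 4.78 to 7.04 CPM with 4-OHT and from 1.86 to 3.73 CPM with vehicle, and Adgre5, an adhesion receptor also known as CD97, from 106 to 149 CPM with 4-OHT and from 87.0 to 94.0 CPM with vehicle. These groups did not overlap either, with log2 changes of 1.07 ± 0.18 and 0.44 ± 0.08 (edgeR adjusted p = 0.0655 and 0.0754). In all, 22 genes (0.139%) had all 6 4-OHT libraries above all 6 vehicle libraries and 6 genes (0.0378%), Foxa1 among them, had all below.

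Stra6, the cell surface receptor that takes up retinol from its carrier protein, had the largest fitted change of the 12, 2.42 ± 0.42 (adjusted p = 0.0754, edgeR). It ran from 43.8 to 227 CPM with 4-OHT (median 153) and from 13.2 to 47.3 CPM with vehicle (median 31.5). The groups overlapped through 1 library, 4-OHT replicate 4 of 1552B at 43.8 CPM, while replicate 3 of that line and treatment stood at 224 CPM. The ligand-binding lectin genes Lgals1 (galectin-1) and Lgals9 (galectin-9) were above vehicle in every line, at 26.6 ± 20.1 and 119 ± 35.6 CPM with 4-OHT and 11.6 ± 9.85 and 82.0 ± 27.0 CPM with vehicle (SD, n = 6 each; adjusted p = 0.0655 and 0.104, edgeR). Also above vehicle in every line were the scavenger receptor gene Scara3 (log2 change 0.99 ± 0.15), the lysyl oxidase gene Loxl4 (1.17 ± 0.20), the neutrophil chemokine gene Cxcl1 (1.03 ± 0.17), the secreted isthmin gene Ism1 (1.12 ± 0.20) and the podocalyxin gene Podxl (0.91 ± 0.17). Trpa1, an irritant-gated ion channel, had a log2 change of 1.88 ± 0.31 but almost no counts in 1552C, at 0.217 and 0.0301 CPM with 4-OHT and 0.0388 and 0 CPM with vehicle. Over all genes, 279 (1.76%) were above vehicle in every line.

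**Figure D2:**
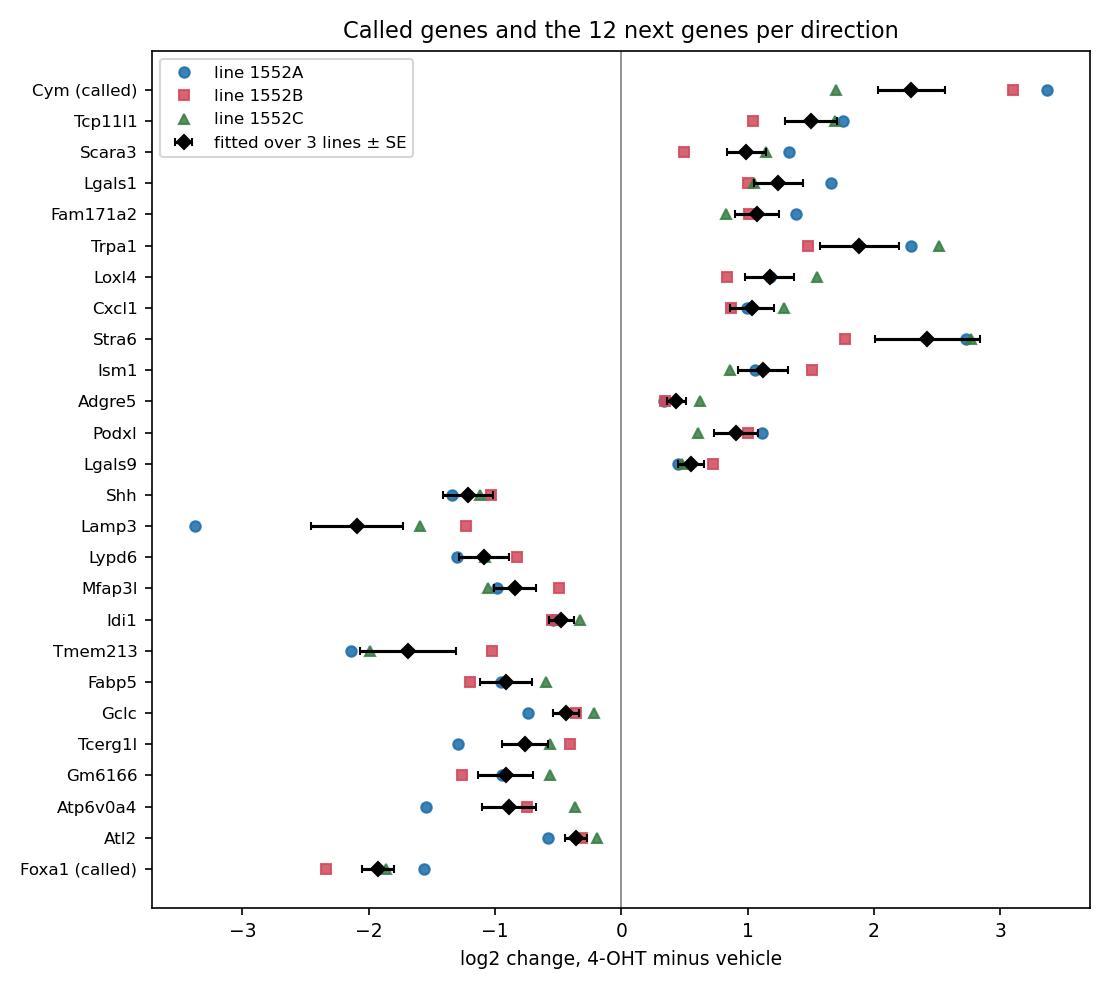
Log2 change, 4-OHT minus vehicle, of the 2 called genes and of the 12 next genes per direction, 1 gene per row. Black diamonds are the change fitted over the 3 lines with its SE, and coloured points are the change within each line. All points of a gene lie on 1 side of 0 because the same sign in the 3 lines was part of the rule; the spread between lines is widest for Lamp3, from -3.38 in 1552A to -1.23 in 1552B.

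Among the 12 genes that led the downward changes, Lamp3 had the largest fitted change. It encodes a lysosome-related membrane protein that marks AT2 cells, at chr16:19653378-19706375 (GRCm38). It ran from 2.40 to 14 CPM with 4-OHT (median 5.35) and from 6.31 to 104 CPM with vehicle (median 21.1), and in each line both 4-OHT libraries lay below both vehicle libraries. The log2 change was -2.09 ± 0.37 (adjusted p = 0.0754, edgeR), and line means with 4-OHT were 9.60% of vehicle in 1552A, 42.5% in 1552B and 33.1% in 1552C. Shh, the hedgehog ligand of lung epithelium, had the smallest p of the 12, at 5.36 ± 4.15 CPM with 4-OHT and 12.7 ± 11.2 CPM with vehicle (SD, n = 6 each; log2 change -1.21 ± 0.20, adjusted p = 0.0655, edgeR). It was near absent from 1552B in both treatments, at most 0.109 CPM with 4-OHT and at most 0.227 CPM with vehicle. The Wnt modulator gene Lypd6 had a log2 change of -1.08 ± 0.20.

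The other genes of this set had varied roles. Idi1, an isomerase of the cholesterol pathway, had a log2 change of -0.47 ± 0.10, and Gclc, the catalytic subunit of the enzyme that limits glutathione synthesis, one of -0.44 ± 0.10. Fabp5, a fatty acid carrier, stood at 146 ± 91.5 CPM with 4-OHT and 262 ± 158 CPM with vehicle (SD, n = 6 each; log2 change -0.91 ± 0.21, adjusted p = 0.128, edgeR). The processed pseudogene Gm6166 moved with it: Fabp5 had between 3.37 and 4.15 times the CPM of Gm6166 in each of the 12 libraries, so the reads of this pair may be shared and count as 1 observation. Likewise Tmem213 lies wholly within Atp6v0a4, a proton pump subunit gene on the opposite strand, and without the strand setting of the counting their changes of -1.69 ± 0.38 and -0.89 ± 0.21 cannot be told apart. The remaining ones were Mfap3l (-0.84 ± 0.17), Tcerg1l (-0.76 ± 0.18) and Atl2, an atlastin of the endoplasmic reticulum (-0.36 ± 0.09). Over all genes, 157 (0.990%) were below vehicle in every line.

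Surfactant cell genes leaned downward, most of all in 1552A. All 28 listed AT2 genes were tested, none was called, 24 had a fitted change below 0 and 4 above, and 13 of the 24 had an unadjusted p under 0.05. Their median log2 change was -0.46, against 0.00 over all genes, of which 49.6% were fitted lower. Among all 15854 genes tested, 818 were fitted lower with an unadjusted p under 0.05 (edgeR). Within lines the median was -0.96 in 1552A, -0.17 in 1552B and -0.21 in 1552C. Beside Lamp3 and Fabp5, the surfactant protein gene Sftpa1 stood at 65.1 ± 83.8 CPM with 4-OHT and 197 ± 248 CPM with vehicle (SD, n = 6 each; log2 change -1.07 ± 0.33, adjusted p = 0.231, edgeR). Cd74, the invariant chain of class II antigen presentation, went the other way (0.76 ± 0.28, adjusted p = 0.307, edgeR). Of 18 alveolar type 1 genes, 8 were fitted higher and 10 lower (median -0.01), and of 19 genes of the transitional alveolar state 15 were fitted higher and 4 lower (median 0.14), with no call in either list.

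Gastric and gut genes are of interest here because Foxa1 and Foxa2 also act in foregut derivatives. Of 27 such genes tested, Cym was called, 19 were fitted higher and 8 lower, and the median log2 change was 0.25, with -0.29 in 1552B, 0.35 in 1552A and 0.64 in 1552C. Among all genes tested, 50.4% were fitted higher. Gkn1, a secreted gastric mucosal protein, ran from 1.44 to 2.94 CPM with 4-OHT and from 0.355 to 1.72 CPM with vehicle and was above vehicle in every line (log2 change 1.62 ± 0.32, adjusted p = 0.105, edgeR). Tff1, a trefoil peptide of the stomach surface, averaged 848 ± 471 CPM with 4-OHT and 1011 ± 302 CPM with vehicle (SD, n = 6 each; -0.42 ± 0.29, adjusted p = 0.583, edgeR). Squamous and basal genes had 22 of 29 tested members fitted higher (median 0.25), among them the keratin genes Krt14 (1.23 ± 0.35) and Krt16 (1.27 ± 0.34), neither above 6.71 CPM in any library. Mesenchymal genes had 9 of 12 fitted higher (median 0.36), beside the fibroblast marker Col1a1 given above, whose part in this was not tested. Fitted higher were also 13 of 19 airway secretory genes (median 0.15), 4 of 6 ciliated genes (0.41), 5 of 5 neuroendocrine genes (0.18), 10 of 20 epithelial junction genes (0.00) and 7 of 18 liver type plasma protein genes (-0.11). None of these lists had a called member other than Cym. Spp1, the secreted phosphoprotein osteopontin counted with the mesenchymal genes, ran from 40.9 to 393 CPM with 4-OHT and from 13.7 to 141 CPM with vehicle and was above vehicle in every line (2.06 ± 0.50, adjusted p = 0.144, edgeR).

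Among the lists, the highest median belonged to the interferon response, genes induced through interferon receptors or by sensing of foreign nucleic acid. Of 33 members tested none was called, 30 were fitted higher and 3 lower, 14 had an unadjusted p under 0.05, and the median log2 change was 0.87. Among all 15854 genes tested, 50.4% were fitted higher, and 1139 of these had an unadjusted p under 0.05 (edgeR). Its median was above 0 in each line, at 0.88 in 1552A, 0.99 in 1552B and 0.66 in 1552C. Fitted higher in all 3 lines were 25 of the 33 members, beside 17.2% of all genes (2721). Summed over the tested members, levels ran from 179 to 412 CPM with 4-OHT (median 231) and from 152 to 300 CPM with vehicle (median 218). The line mean of this sum was higher with 4-OHT in all 3 lines. In 1552A this rested on 4-OHT replicate 2: the sums were 197 and 412 CPM with 4-OHT and 300 and 296 CPM with vehicle. The 3 members fitted lower were Isg20, Mx1 and Stat2. Mx1 ran from 8.89 to 70.5 CPM with 4-OHT and from 6.29 to 99.0 CPM with vehicle (log2 change -0.10). Isg20 had medians of 23.1 and 35.1 CPM (-0.15). Among members fitted higher, levels could be low: the oligoadenylate synthetase gene Oas3 ran from 0.103 to 7.18 CPM with 4-OHT and from 0.0388 to 0.604 CPM with vehicle (2.98 ± 0.73, adjusted p = 0.144, edgeR). Its relative Oasl1 ran from 0.860 to 16 CPM with 4-OHT and from 0.216 to 9.70 CPM with vehicle and was above vehicle in every line (1.39 ± 0.28, adjusted p = 0.107, edgeR). In 1552A the repeat libraries with 4-OHT differed in Oas3, at 0.103 and 4.49 CPM, and the median of the list was 1.12 without 4-OHT replicate 1 and 0.38 without 4-OHT replicate 2. Oas and Ifit genes have close paralogs, so reads may be split among copies.

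Most members of the NF-kB, Wnt and YAP lists were fitted higher, and those of the MAPK list were not. Among all 15854 genes tested, 50.4% were fitted higher, and 1139 of these had an unadjusted p under 0.05 (edgeR). Of 21 NF-kB and chemokine genes, 18 were fitted higher and 12 of them had an unadjusted p under 0.05 (median 0.50; 0.78 in 1552A, 0.00 in 1552B and 0.64 in 1552C). Csf1, the macrophage growth factor, stood at 6.34 ± 4.10 CPM with 4-OHT and 2.22 ± 1.29 CPM with vehicle (SD, n = 6 each; 1.5 ± 0.43, adjusted p = 0.205, edgeR). Its receptor gene Csf1r, counted with the leukocyte markers, stood at 0.620 ± 0.433 CPM with 4-OHT and 0.107 ± 0.0401 CPM with vehicle, while the leukocyte gene Ptprc stood at 0.397 ± 0.276 and 0.441 ± 0.385 CPM (SD, n = 6 each). Of 15 Wnt targets and ligands, 13 were fitted higher (median 0.46). The ligand genes Wnt4 (1.86 ± 0.37) and Wnt7b (1.12 ± 0.26) and the adhesion receptor gene Cd44 (0.43 ± 0.11) were above vehicle in every line (adjusted p = 0.105, 0.142 and 0.161, edgeR), in a medium that itself contains Wnt3a. Of 24 YAP and TEAD targets, 19 were fitted higher (median 0.16), led by the receptor kinase gene Axl (1.79 ± 0.41, adjusted p = 0.142, edgeR) and the matricellular gene Ccn2 (1.05 ± 0.27, adjusted p = 0.156, edgeR). MAPK feedback genes, which report signalling through the MAPK cascade, had 10 of 23 fitted higher and a median of -0.03.

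The metabolic lists leaned downward. Of all 15854 genes tested, 49.6% were fitted lower, and 818 of these had an unadjusted p under 0.05. Over the same genes, 157 (0.990%) lay below vehicle in every line. Of 36 lipid synthesis genes, 32 were fitted lower, 21 of them with an unadjusted p under 0.05, and 5 lay below vehicle in every line (median -0.34; -0.49 in 1552A, -0.40 in 1552B and -0.07 in 1552C). Examples are the sterol carrier gene Stard4, at 204 ± 54.0 CPM with 4-OHT and 277 ± 57.1 CPM with vehicle, and the glycerolipid enzyme gene Gpam, at 44.3 ± 17.2 CPM with 4-OHT and 88.0 ± 51.2 CPM with vehicle (SD, n = 6 each; adjusted p = 0.156 and 0.169, edgeR). Of 29 hypoxia and glycolysis genes, 28 were fitted lower, 7 of them with an unadjusted p under 0.05 (median -0.51; -0.93 in 1552A, -0.43 in 1552B and -0.15 in 1552C). Repeat libraries of 1 line and treatment also differed in them: the glycolytic enzyme gene Gapdh stood at 3692 and 7526 CPM with 4-OHT and 7948 and 17055 CPM with vehicle in 1552A. Of 26 unfolded protein response genes, 23 were fitted lower (median -0.20), and of 33 xenobiotic and glutathione genes 19 (median -0.05). Cell cycle genes had 31 of 32 fitted higher, none with an unadjusted p under 0.05 (median 0.24; 0.61 in 1552A, 0.11 in 1552B and -0.03 in 1552C). None of these lists had a called member.

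The lists not described so far also had no called member. Among all genes tested, 50.4% were fitted higher. Antigen presentation genes had 6 of 10 fitted higher (median 0.31), and p53 and senescence genes 10 of 17 (median 0.06) in tumours that carry the p53frt allele. Of 20 retinoid, hedgehog and BMP genes, 9 were fitted higher and 11 lower (median -0.12); Stra6 and Shh are among them. Fgfr2, the receptor of the fibroblast growth factors that shape the lung, lay below vehicle in every line, at 26.1 ± 19.9 CPM with 4-OHT and 56.3 ± 37.4 CPM with vehicle (SD, n = 6 each; -0.92 ± 0.24, adjusted p = 0.169, edgeR).

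**Figure D3:**
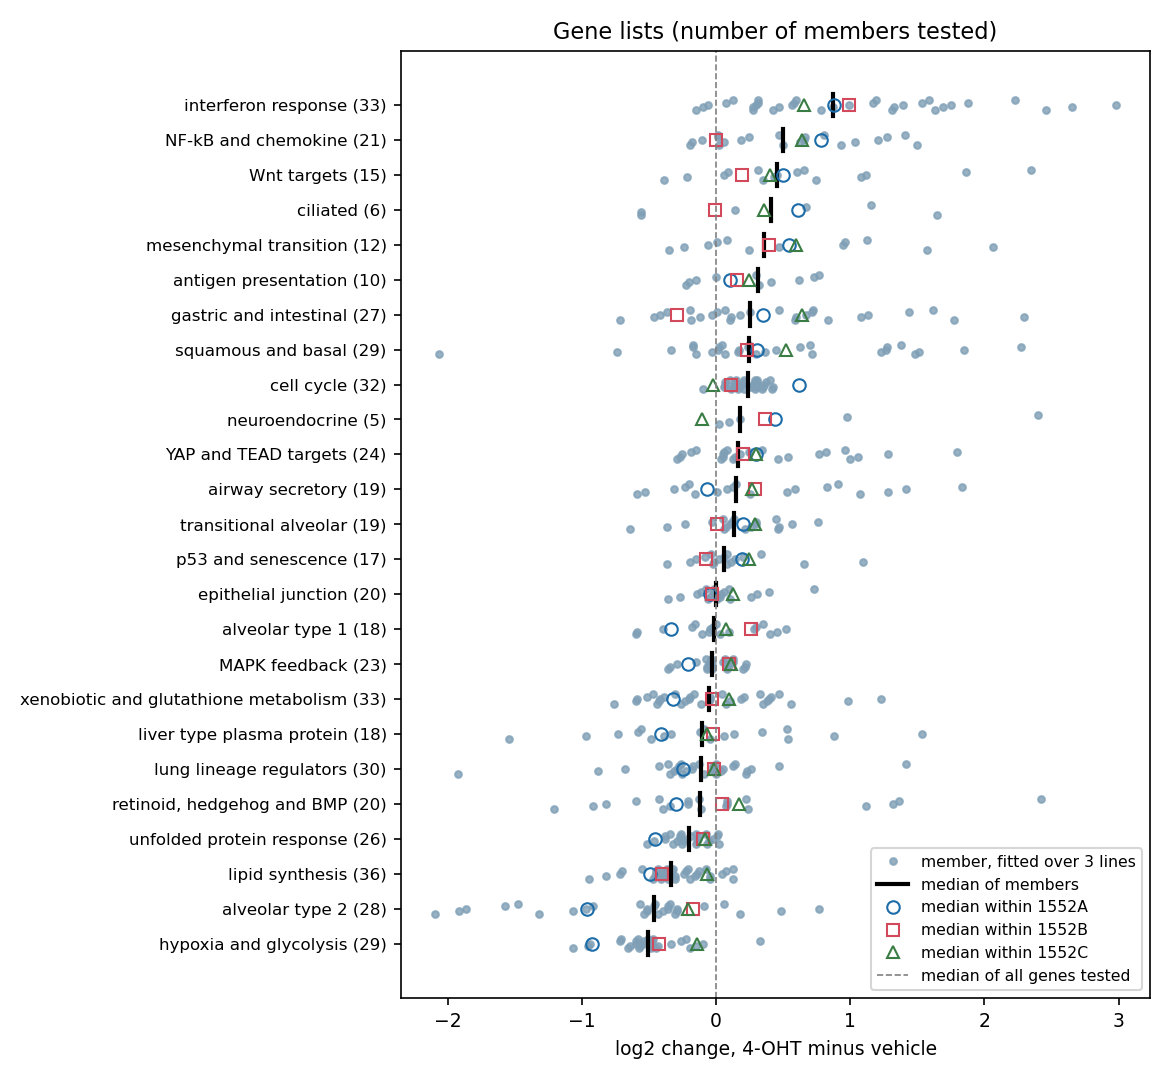
Log2 change, 4-OHT minus vehicle, of the tested members of 25 gene lists, 1 list per row with the number of members tested. Grey-blue points are members fitted over the 3 lines, black bars their median, open symbols the medians within each line, and the dashed line the median over all genes tested. The interferon response lies highest (median 0.87) and hypoxia and glycolysis lowest (median -0.51), and for AT2 genes the median of 1552A (-0.96) stands apart from those of the other lines.

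The lines responded unequally in number of calls. Fitted within lines, with 2 against 2 libraries and the spread shared over the 3 lines, 210 genes (1.32%) passed in 1552A, 5 (0.0315%) in 1552B and 7 (0.0442%) in 1552C (edgeR). Foxa1 was the only gene called in all 3, Cym was called in 1552A and 1552B, and Fbln2, a matrix protein gene, in 1552A and 1552C. Fbln2 rose to 107 and 77.0 CPM with 4-OHT in 1552A, against 10.6 and 13.6 CPM with vehicle, and to 23.5 and 24.1 CPM in 1552C, against 3.18 and 3.63 CPM. In 1552B it stood at 15.5 and 27.0 CPM with 4-OHT and 12 and 23.7 CPM with vehicle, and the treatments overlapped. In 1552C the ligand gene Wnt7b also rose, to 26.8 and 34.4 CPM, against 6.17 and 7.22 CPM, as did Il1rn, the interleukin-1 receptor antagonist, to 21.0 and 17.1 CPM, against 4.19 and 4.69 CPM with vehicle. B3gnt7, a glycosyltransferase gene, fell there to 4.03 and 4.15 CPM with 4-OHT, against 22.8 and 33 CPM with vehicle. In 1552B the lipid transporter gene Abca12 rose to 63.8 and 40.9 CPM with 4-OHT, against 10.4 and 13.9 CPM with vehicle. In a model fitted to each line alone, with 2 against 2 libraries, edgeR called 0 genes in 1552A, 0 in 1552B and 8 in 1552C, so that the order of the lines by number of calls depended on sharing the spread between them. Repeat libraries differed most in 1552A, by a median absolute log2 difference of 0.329 with 4-OHT and 0.326 with vehicle. The values were 0.293 and 0.235 in 1552B and 0.211 and 0.290 in 1552C. How far this bears on the number of calls was not tested.

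Of the 210 genes called in 1552A, 166 were higher and 44 lower. Their median log2 change was 2.51 and -1.54 in that line, 0.20 and 0.09 in 1552B, and 0.52 and -0.38 in 1552C. Because the genes were picked by their test in 1552A, the size of their medians there is raised. These medians therefore do not measure a difference between lines. The higher ones had the same sign in 1552B for 114 of 166 and in 1552C for 143, and the lower ones for 18 of 44 and 33. The largest upward changes were led by Fscn1, the actin bundling protein fascin, at 51.0 and 4.25 CPM with 4-OHT and 0.475 and 0.396 CPM with vehicle. The repeat libraries with 4-OHT were thus far apart, and both lay above vehicle. Pyy, a gut peptide hormone, rose to 12.4 and 3.09 CPM in 1552A with 4-OHT, against 0.329 and 0.108 CPM with vehicle. Among those that fell in 1552A, Lamp3 stood at 5.75 and 14 CPM with 4-OHT and 101 and 104 CPM with vehicle, and Hdc, the enzyme that makes histamine, at 2.20 and 8.02 CPM and 33.5 and 46.7 CPM.

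Whether the lines differed in their response was tested directly, by the product of line and treatment, and 5 genes (0.0315%) passed, each at an adjusted p of 0.0433 (edgeR): Mamld1, Sgpp2, Kank1, Jam2 and Gm30414. Sgpp2, a sphingosine phosphate phosphatase gene, rose in 1552A to 9.19 and 12.1 CPM with 4-OHT, against 1.53 and 2.19 CPM with vehicle, and lay between 121 and 155 CPM with 4-OHT and between 115 and 166 CPM with vehicle in the other lines. Kank1, an adaptor of the cell cortex, rose in 1552A to 4.27 and 3.65 CPM, against 0.475 and 0.540 CPM. Jam2, a junctional adhesion molecule gene, rose in 1552B to 12.7 and 12.7 CPM, against 4.73 and 4.23 CPM, and its log2 change was 0.10 in 1552A and -0.44 in 1552C. Of the 210 genes called in 1552A, 3 passed this test of a difference between lines, Mamld1, Sgpp2 and Kank1, and it did not pass for Foxa1 (adjusted p = 0.517) or Cym (adjusted p = 0.452, edgeR).

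**Figure D4:**
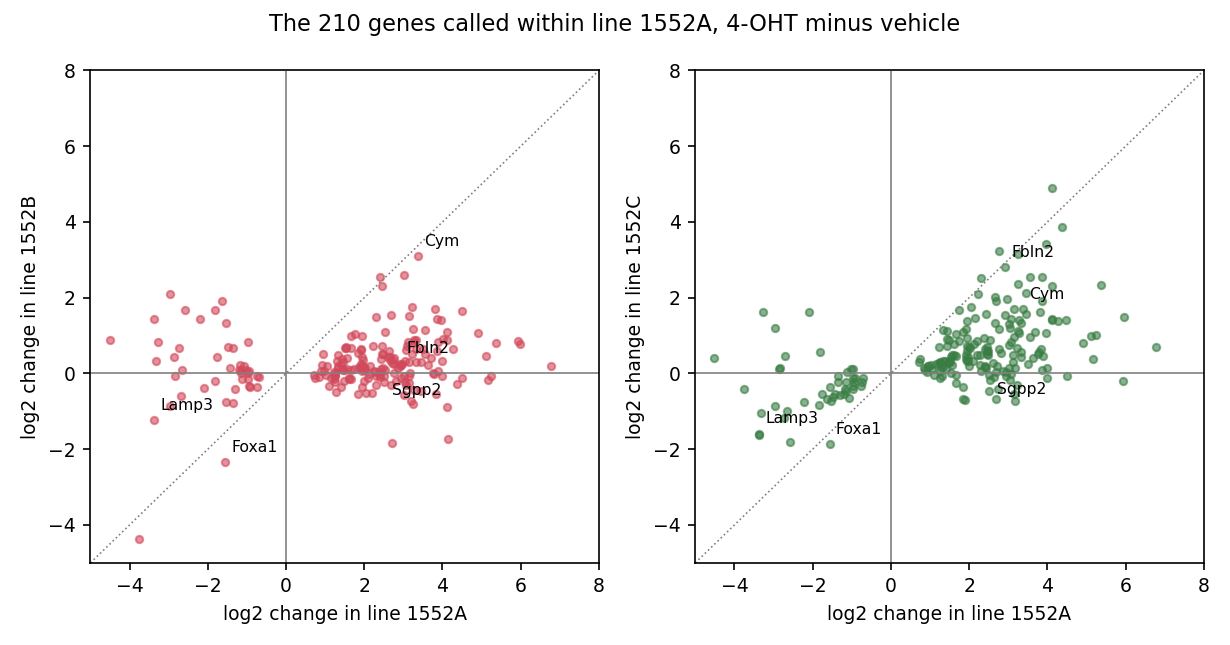
Log2 change, 4-OHT minus vehicle, of the 210 genes called within line 1552A, with their change in 1552A on the horizontal axis and in 1552B (left) or 1552C (right) on the vertical axis. Each point is a gene and the dotted line marks equal change. The genes were picked by their test in 1552A, which raises the size of their values on the horizontal axis. Most points lie near 0 in 1552B (median 0.20 for the genes higher in 1552A), and Foxa1 and Cym are among those that lie far from 0 in both panels.

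The same treatment of organoids with other floxed alleles gives values to set beside these changes. Loss of Foxa2 alone was available in 8 libraries of 2 lines (4 with 4-OHT and 4 with vehicle), with Foxa2flox in place of Foxa1flox. The library titles of one of these lines, 1267B, start with other numbers than those of the Foxa1-floxed libraries. What these numbers mean is not stated. The difference of the 2 effects, tested on counts summed per line, gave no call among 18384 genes (0%; 1071 at an unadjusted p under 0.05; edgeR), and 45 calls when libraries took the place of line sums. Even the floxed genes did not pass with 5 lines: the Foxa1-floxed effect minus the Foxa2-floxed effect was -2.46 ± 0.27 for Foxa1 (adjusted p = 0.219) and 5.22 ± 0.45 for Foxa2 (adjusted p = 0.125, edgeR). Side by side, the log2 changes were 2.30 in Foxa1-floxed and 0.97 in Foxa2-floxed organoids for Cym, 1.5 and 0.35 for Tcp11l1, -2.09 and -1.79 for Lamp3, -1.21 and -2.33 for Shh, and 2.42 and 2.96 for Stra6. Foxa1 had a log2 change of 0.54 in Foxa2-floxed organoids (adjusted p = 0.0644, edgeR), and Foxa2 had 0.13 in Foxa1-floxed ones. The floxed genes themselves fell unequally, with -1.92 for Foxa1 in Foxa1-floxed and -5.11 for Foxa2 in Foxa2-floxed organoids. How far this bears on the size of other changes was not tested.

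Loss of both genes was available in 10 libraries of 3 other lines (5 with 4-OHT and 5 with vehicle) in a separate table, so table and genotype cannot be told apart. The Foxa1-floxed effect differed from the double-floxed effect at 248 of 18501 genes (1.34%), 176 with a higher and 72 with a lower effect in Foxa1-floxed organoids (edgeR on counts summed per line). Foxa1 did not differ, with log2 changes of -1.91 and -1.98 (difference 0.07 ± 0.25, adjusted p = 0.930), and Foxa2 did, with 0.13 and -4.44 (difference 4.57 ± 0.40, adjusted p = 0.00701). The transferrin gene Trf averaged 371 ± 352 CPM with 4-OHT and 1119 ± 1211 CPM with vehicle in Foxa1-floxed libraries (SD, n = 6 each), and 0.347 ± 0.444 and 1771 ± 1834 CPM in double-floxed ones (SD, n = 5 each; difference 10.46 ± 0.76, adjusted p = 0.00374). Itih2, which encodes a liver type protease inhibitor chain, stood at 31.9 ± 26.0 and 30.5 ± 25.2 CPM in Foxa1-floxed and 0.0305 ± 0.0282 and 58.2 ± 63.1 CPM in double-floxed libraries. The heart myosin gene Myh7 likewise stood at 149 ± 88.3 and 193 ± 92.2 CPM and at 0.101 ± 0.109 and 141 ± 85.2 CPM, with its close neighbour Myh6 in the same pattern (adjusted p = 0.00214, 0.00286 and 0.000971 for Itih2, Myh7 and Myh6). Trf, Itih2, Myh7 and Myh6 averaged 19.1 CPM or more in the Foxa1-floxed libraries with 4-OHT and 0.347 CPM or less in the double-floxed libraries with 4-OHT. Itih2 was uneven in the Foxa1-floxed libraries, from 0.107 to 58.8 CPM with 4-OHT and from 0.357 to 57.2 CPM with vehicle. Its means there rest on part of the libraries.

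In the other direction, the mast cell protease gene Tpsab1 averaged 2.34 ± 2.20 CPM with 4-OHT and 1.55 ± 1.52 CPM with vehicle in Foxa1-floxed libraries, and 215 ± 289 and 4.36 ± 5.82 CPM in double-floxed ones (difference of log2 effects -5.15 ± 0.65, adjusted p = 0.0196, edgeR). Lor, a protein of the cornified skin envelope, had log2 changes of 1.57 and 5.28 (adjusted p of the difference = 0.0367), and Lypd5 had 0.30 and 5.03 (0.0377). The difference did not pass for Cym, at 2.47 in Foxa1-floxed and -2.56 in double-floxed organoids (difference 5.03 ± 1.45, adjusted p = 0.161), for Tcp11l1 (1.49 and 0.82, adjusted p = 0.421) or for Nkx2-1 (-0.24 and -0.07, adjusted p = 0.790). The number of genes whose effect differed was 51, 41 and 36 without line 1552A, 1552B and 1552C, and 124 without the double-floxed line 1027B.

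**Figure D5:**
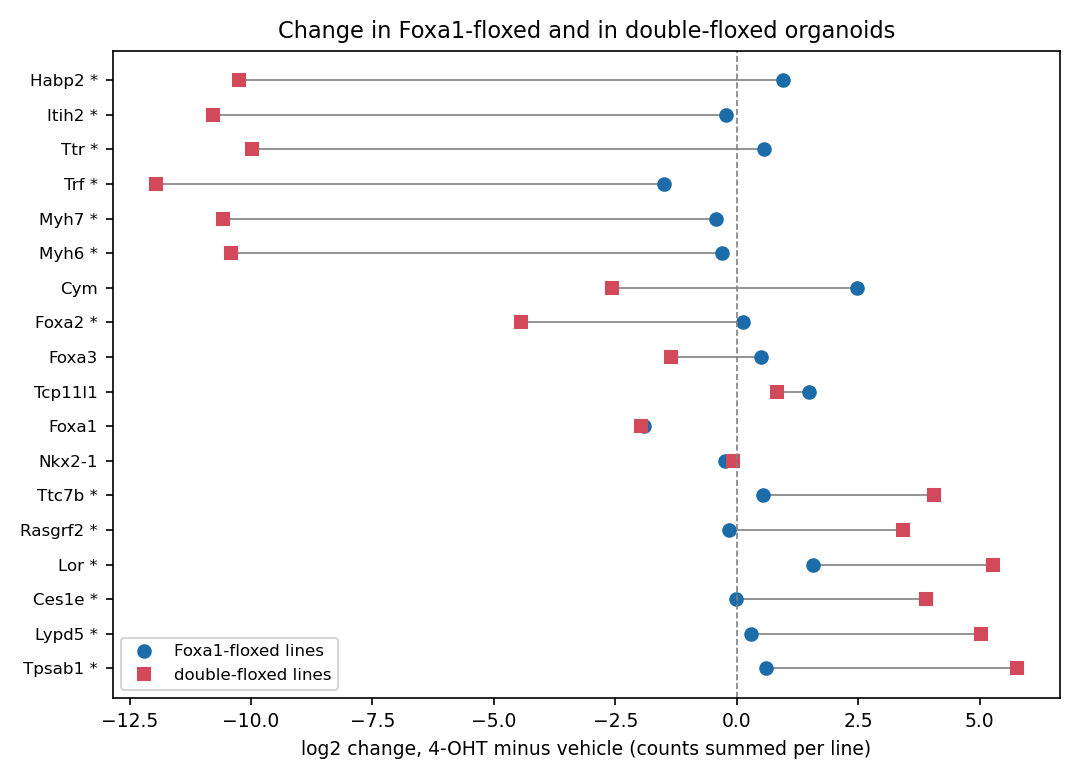
Log2 change, 4-OHT minus vehicle, from counts summed per line in Foxa1-floxed lines (circles) and double-floxed lines (squares), 1 gene per row, with a star where the difference of the effects had an adjusted p under 0.05. Trf, Itih2, Myh6, Myh7, Ttr and Habp2 lie between -1.5 and 0.94 in Foxa1-floxed lines and at -9.98 or lower in double-floxed lines, while Foxa1 lies at -1.91 and -1.98. For Ttr, Myh6, Itih2 and Habp2 the double-floxed 4-OHT libraries held at most 4 counts in all, so their fitted value there depends on the prior count. In Foxa1-floxed libraries the medians with 4-OHT and vehicle were 0 and 0 CPM for Habp2 and 0.0726 and 0.0358 CPM for Ttr. The maxima were 11.1 and 5.96 CPM for Habp2 and 63.4 and 42.6 CPM for Ttr, so the Foxa1-floxed values of both rest on part of the libraries.

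Genes called in the other genotypes, none of whose libraries are shared with these 12, mostly had the same sign here, with medians of smaller size. They were picked by passing the test in the other genotype, which raises the size of their medians there. The medians here carry no such choice, so the sizes cannot be compared. Of 302 genes called higher in double-floxed organoids, 251 were tested here and 201 (80.1%) were fitted higher, beside 50.4% of all genes. Their median log2 change was 0.23 in Foxa1-floxed and 1.75 in double-floxed organoids. Of 290 called lower, 287 were tested here and 214 (74.6%) were fitted lower, beside 49.6% of all genes, with medians of -0.18 here and -2.04 in double-floxed organoids, and Foxa1 was the only one called here. The genes called in Foxa2-floxed organoids gave 225 of 268 fitted higher (84.0%) and 207 of 255 fitted lower (81.2%), with medians here of 0.38 and -0.26 against 1.82 and -1.40 there, and none was called here. All these organoids received 4-OHT, and how much of the shared direction goes with 4-OHT or Cre activity rather than with the floxed genes was not tested.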

How the data were processed

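Total RNA of organoids was sequenced from directional libraries, per the labels' protocols. The authors deposited whole-number read counts per gene, with no normalization. Per the submitters' processing notes, STAR 2.7.6a, featureCounts 1.5.1, DESeq2 and the build GRCm38 were used; the sources used here do not give their order, the annotation or the strand setting of the counting.

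Counts were tested with edgeR 4.0.16 in R 4.3.3: the filterByExpr filter, TMM scaling and the quasi-likelihood test, with organoid line as a block and Benjamini-Hochberg adjustment over the 15854 genes kept. A gene was called at an adjusted p under 0.05. The SE of a log2 change was its size over the square root of F. P-values measure the spread between these libraries, which may be technical. The fits were also run on simulated counts, drawn as independent libraries from the fitted count model itself. Such counts cannot show whether repeat libraries of the same tumour act as separate replicates. The pairing comes from the organoid line: within a line, the mean deviations of 4-OHT and vehicle libraries correlated with r = 0.845, 0.908 and 0.903 in 1552A, 1552B and 1552C. DESeq2 1.42.0 served as an alternative.

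The genes and the 30 lists were chosen with earlier results of these data known. Named were Foxa1, Foxa2, Foxa3, Nkx2-1 and all called genes. Also named were the 12 uncalled genes per direction with the smallest p, a mean log2 CPM of at least 2 and 1 sign in the 3 lines, up to 6 members per list, and those with the largest change within lines or between genotypes; not all are printed. Libraries with hairpins (8) were not analysed here. A further allele shared by all groups and a marker gene are not reported here.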

Additional observations from a re-analysis of the deposited data

Results flagged for a closer look

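For 5 genes the effect of 4-OHT differed between the 3 organoid lines by the line-by-treatment test, with an adjusted p of 0.0433 each (edgeR): the log2 changes in 1552A, 1552B and 1552C were 3.46, -0.45 and 2.13 for Mamld1, 2.51, -0.07 and -0.05 for Sgpp2, 2.95, -0.13 and -0.08 for Kank1, 0.10, 1.5 and -0.44 for Jam2, and -0.57, 2.51 and -0.63 for the predicted gene Gm30414. Mamld1 stood at 1.51 and 1.75 CPM with 4-OHT and 0.146 and 0.144 CPM with vehicle in 1552A. Gm30414 stood at 6.21 and 6.76 CPM with 4-OHT and 1.20 and 1.07 CPM with vehicle in 1552B.

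The effect of 4-OHT differed between Foxa1-floxed and double-floxed lines at 248 genes by a test of the difference itself. Genotype and table cannot be told apart there. In 60 groups of 6 libraries examined for single values far from the rest, none was found. This did not cover every gene: with 4-OHT, Fscn1 had a median of 1.81 CPM and a maximum of 51.0 CPM.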

How the results depend on the processing

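The number of genes called between 4-OHT and vehicle (2) was 354 with DESeq2, 1250 without a filter on low counts, 2 with another scaling (RLE), 2 with both single-floxed genotypes in 1 fit (Foxa1 and Tcp11l1, with Cym lost at an adjusted p of 0.106, edgeR), and 0 on counts summed per line. Without the replicate block by line it was 1, Foxa1, and Cym had a log2 change of 1.71 (adjusted p = 1.00). Leaving out 1 library gave 1 to 44 calls; leaving out 1552A, 1552B or 1552C gave 1, 20 and 2. Foxa2 had a log2 change of -0.077 (adjusted p = 0.827, edgeR) without 1552B, where it had been 0.13. The line-by-treatment count (5) was 863 without a filter and 290 with DESeq2. Within lines, the counts without a filter were 1549, 303 and 320 in 1552A, 1552B and 1552C, and each line fitted alone gave 0, 0 and 8, which turns the order of 1552A and 1552C round. The difference from the Foxa2-floxed effect (0 calls) gave 45 with libraries in place of line sums, 58 without a filter and 5 without line 1267B. The difference from the double-floxed effect (248) gave 599 with libraries, 650 without a filter, 51, 41 and 36 without 1552A, 1552B and 1552C, and 124 without 1027B. The cause was not tested. Of the list medians, 578 values moved by less than their spread and 31 by more. With 3 lines, small changes in genes of few counts are not detectable at this depth.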
